A study of Homo sapiens with 14 samples.

Results

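The regions described here were distal sites on the chromatin of primed human embryonic stem cells (hESCs) that carried the BAF chromatin remodelling complex together with SOX2 and had no BAF peak in naïve cells. BAF regions of each state were the peaks of BRG1 and BAF155 merged where they touched or overlapped. Members were selected by 3 criteria applied to the primed regions. They had no naïve BAF region with at least 25% of either covered, their midpoint lay over 1 kb from every GENCODE transcript start, and a primed SOX2 peak overlapped them with at least 25% of either covered. On chromosomes 1 to 22 and X, 3658 of 58508 primed BAF regions met these criteria, which is 14.1% of the 25895 distal primed-only regions. They took up 3724 of the 9290 primed SOX2 peaks (40.1%). The absence of a naïve BAF region, the presence of primed SOX2 and the distance from transcript starts are therefore properties of the selection and not results. So is the presence of a primed BRG1 or BAF155 peak, although which of them was called is not fixed.

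The series consists of chromatin immunoprecipitation followed by sequencing (ChIP-seq) in WIBR3, an established hESC line, kept on mouse feeder cells in 2 conditions. Primed cells were in conventional serum-containing medium with FGF2, and naïve cells were in 5i/L/A, a mixture of kinase inhibitors with LIF and activin A. Antibodies were against BRG1 and BRM, the alternative ATPases of BAF, against BAF155, a scaffold subunit, and against SOX2, and input libraries of each state were the controls for peak calling. SOX2 libraries were read as 150 bp paired-end reads and BAF libraries as 75 bp single-end reads, at different facilities. Both SOX2 lists of a state held identical coordinates (9290 of 9290 peaks in primed cells, 1940 of 1940 in naïve cells) and were counted as 1 sample. Every other group had 1 list. No value below has a replicate error, and intervals cover counting over regions only. Read totals appear among the quality metrics of the study and not in the lists, and were not used here, so differences in depth between libraries were not taken into account. A missing peak is a call under the threshold of the peak caller and not an absence of protein.

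BAF complexes use ATP to slide or evict nucleosomes and so open DNA at enhancers, the distal elements from which transcription factors act on promoters. SOX2 is an HMG-box transcription factor that binds a short core in the minor groove. In pluripotent cells it often binds beside OCT4 on a composite element, and it is retained in neural progenitors. ZIC proteins are zinc-finger factors of the primed state and the early neural plate, whereas KLF and TFAP2 factors are associated with naïve cells.

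The DNA under the SOX2 summit is shown for 8 sites because it carries the motifs counted below. The sites are the 3 members of highest SOX2 fold over input, followed by others of the 10 highest in SOX2 fold or the 5 highest in BAF155 fold that held an OCT4-SOX2 element or a ZIC motif within 100 bp of the summit. Each line gives 200 bp of the plus strand of hg38 centred on the summit, in lower case, with capitals for every match on either strand to the SOX core (CATTGT or CTTTGT), the ZIC motif (CCTGCTG) or the OCT4-SOX2 element (a SOX core, any base, then ATGCAAAT, with up to 2 mismatches).
EPHA2 downstream site, chr1:16116024-16116223: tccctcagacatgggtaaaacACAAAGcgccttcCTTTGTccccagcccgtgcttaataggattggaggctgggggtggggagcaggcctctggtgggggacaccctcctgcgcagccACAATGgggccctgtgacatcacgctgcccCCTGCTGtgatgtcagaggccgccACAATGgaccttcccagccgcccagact
chromosome 5 gene-poor site, chr5:87787776-87787975: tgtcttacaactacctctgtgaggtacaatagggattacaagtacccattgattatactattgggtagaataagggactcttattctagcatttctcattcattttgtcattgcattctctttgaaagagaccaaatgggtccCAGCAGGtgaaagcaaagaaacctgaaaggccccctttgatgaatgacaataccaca
chromosome 17 gene-poor site, chr17:71032826-71033025: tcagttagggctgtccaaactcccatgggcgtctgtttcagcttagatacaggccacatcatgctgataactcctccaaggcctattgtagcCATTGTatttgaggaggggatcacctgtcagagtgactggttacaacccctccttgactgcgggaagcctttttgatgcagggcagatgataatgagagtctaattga
ARL15 intron site, chr5:54018534-54018733: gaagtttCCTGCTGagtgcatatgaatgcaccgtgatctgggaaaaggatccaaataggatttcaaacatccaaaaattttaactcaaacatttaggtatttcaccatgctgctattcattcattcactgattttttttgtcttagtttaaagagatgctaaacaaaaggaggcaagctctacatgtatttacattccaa
ETS1 intron site, chr11:128532745-128532944: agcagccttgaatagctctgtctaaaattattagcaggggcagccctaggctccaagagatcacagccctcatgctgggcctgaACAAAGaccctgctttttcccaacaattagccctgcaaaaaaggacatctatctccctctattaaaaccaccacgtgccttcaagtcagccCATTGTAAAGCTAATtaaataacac
LINC02791 intron site, chr1:69244368-69244567: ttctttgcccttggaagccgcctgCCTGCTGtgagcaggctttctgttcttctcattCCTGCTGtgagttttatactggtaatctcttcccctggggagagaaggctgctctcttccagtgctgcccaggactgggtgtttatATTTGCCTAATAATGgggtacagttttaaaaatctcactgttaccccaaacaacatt
chromosome 20 gene-poor site, chr20:39282757-39282956: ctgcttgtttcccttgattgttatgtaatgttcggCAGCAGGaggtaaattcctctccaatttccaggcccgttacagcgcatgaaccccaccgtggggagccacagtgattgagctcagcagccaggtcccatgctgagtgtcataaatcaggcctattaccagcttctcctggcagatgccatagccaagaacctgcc
THSD4 intron site, chr15:71203687-71203886: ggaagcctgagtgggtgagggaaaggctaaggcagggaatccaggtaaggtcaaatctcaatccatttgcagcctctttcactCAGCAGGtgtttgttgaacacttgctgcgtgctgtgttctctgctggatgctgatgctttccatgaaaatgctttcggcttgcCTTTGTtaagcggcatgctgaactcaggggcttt
The EPHA2 downstream site held 4 SOX cores and 1 ZIC motif. The chromosome 5 gene-poor site had the same SOX2 fold and held no SOX core, only 1 ZIC motif. At the ETS1 intron site an OCT4-SOX2 element with 2 mismatches lay 75 bp to the right of the summit and overlapped a SOX core. At the LINC02791 intron site the element with 2 mismatches held no perfect SOX core and 2 ZIC motifs lay to its left. A match describes letters in the window and not a bound site.

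The strongest members lay at very different distances from genes. The EPHA2 downstream site (chr1:16115714-16116467) had a SOX2 fold of 36.8, a BAF155 fold of 9.64 and a BRG1 fold of 6.26, and lay 17.5 kb from the nearest start of EPHA2, an ephrin receptor kinase. It shared the highest SOX2 fold and was of rank 3 by BAF155. The chromosome 5 site (chr5:87787331-87788946) also had a SOX2 fold of 36.8, with a BAF155 fold of 5.46, but its nearest protein-coding start, that of CCNH, was 375 kb away. The chromosome 17 site (chr17:71032372-71033683) had a SOX2 fold of 33.6 and lay 863 kb from the start of the potassium channel gene KCNJ2. High SOX2 fold was thus found both near to and far from coding genes.

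The site of rank 4 (chr20:56735307-56737356, SOX2 fold 31.3) lay 106 kb from TFAP2C, which encodes a factor of naïve and trophoblast cells, and a naïve BAF region began 0.257 kb from its edge. The site of rank 5 (chr10:117158288-117160422, fold 31.1) lay 21.1 kb from VAX1, a homeobox gene of the ventral forebrain. Intronic sites followed in ZBTB16 (fold 29.9), ARL15 (29.2), ETS1 (27.1) and FMN1 (26.7), with an intergenic site 8.47 kb from USP7 (27.6) among them. Of these 10 sites only that in ZBTB16, which encodes a zinc-finger repressor, had no BRG1 peak. By BAF155 fold the leading members were the LINC02791 intron site (chr1:69244212-69244688, BAF155 fold 10.5) and the chromosome 20 gene-poor site (chr20:39282589-39283065, 9.77), whose SOX2 folds were only 5.79 and 5.47, both under the median of all members.

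Over all members the deposited SOX2 fold had a median of 6.94 and ran from 2.51 to 36.8, with quartiles at 5.61 and 9.11. BAF155 fold had a median of 3.97 (quartiles 3.38 and 4.75) and, where BRG1 was called, BRG1 fold had a median of 3.69. SOX2 fold and BAF155 fold were weakly related across 3656 members (Spearman's rho 0.329), and BRG1 and BAF155 fold more closely across 1502 (rho 0.519). Points in these relations share libraries and chromosomal neighbourhoods, and the coefficients are a description without a test. Members were 584 bp wide at the median, against 335 bp for distal primed-only regions without SOX2 and 875 bp for distal regions common to both states that had primed SOX2. Of the members 62 (1.69%) held at least 2 SOX2 peaks, and 4 held 3 or more. The SOX2 summit lay 84 bp from the BAF midpoint at the median (quartiles 35 and 191 bp) and inside the BAF region in 97.5% of members.

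Regions at the edges of the selection were as follows. The member nearest to a transcript start lay 1003 bp away, and the nearest region left out for this reason 999 bp away. The lowest SOX2 cover among members was 25.9% and the highest cover left out was 24.5%, with 10 further distal primed-only regions touching a SOX2 peak under the limit. Among members 25 touched a naïve BAF region, with a cover of at most 22.9%, and the lowest cover left out was 25.4%.

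BRG1, the ATPase, was called far more often at members than at distal primed-only regions without SOX2. A primed BRG1 peak overlapped 1504 of 3658 members (41.1%, exact 95% interval 39.5 to 42.7%) and 1551 of 22237 regions without SOX2 (6.97%, interval 6.64 to 7.32%), a difference of 34.1 percentage points (Newcombe 95% interval 32.5 to 35.8). Across all 58508 primed BAF regions the share was 25.2%. Common distal regions with SOX2 stood higher, at 59.3%, so that members lay 18.1 points lower (-18.1, interval -20.5 to -15.7). BAF155 was called at 3656 of 3658 members, and the other 2 had BRG1. By the way regions were built, every region without BRG1 was made of BAF155 peaks alone. The primed BRG1 list held 15611 peaks and the BAF155 list 58352. BRG1 peaks were among those merged into regions, so these shares are not independent of the selection. With regions of both states built from BAF155 peaks alone, members exceeded regions without SOX2 by 34.7 points (interval 33.1 to 36.2). The difference from common regions was not recomputed in this way.

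BAF155 fold was itself higher at members, with a median of 3.97 against 3.12 at regions without SOX2, and the share with BRG1 rose with BAF155 fold in both classes. When primed-only regions were divided into 10 bins of equal size by BAF155 fold, the share with BRG1 was higher in members in each of the 10 bins. In the lowest bin it was 2.35% of 85 members and 0.560% of 2498 regions without SOX2, with overlapping exact intervals. In bin 5 it was 7.57% and 2.38%. In the highest bin it was 74.6% of 1341 members (interval 72.2 to 76.9%) and 45.2% of 1242 regions without SOX2 (interval 42.4 to 48.0%). Combined over these bins, a division chosen after the data were seen, the difference was 16.4 points (interval 14.8 to 18.0), and over 10 bins of region width it was 27.01 points (interval 25.4 to 28.6). It was 16.9 points with a −log10 q of at least 3 in every list that gives q, 10.4 points under an overlap rule of 50% of each region and 53.5 points (interval 50.2 to 56.6) when each antibody's list was held to the same number of peaks in both states.

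**Figure D1:**
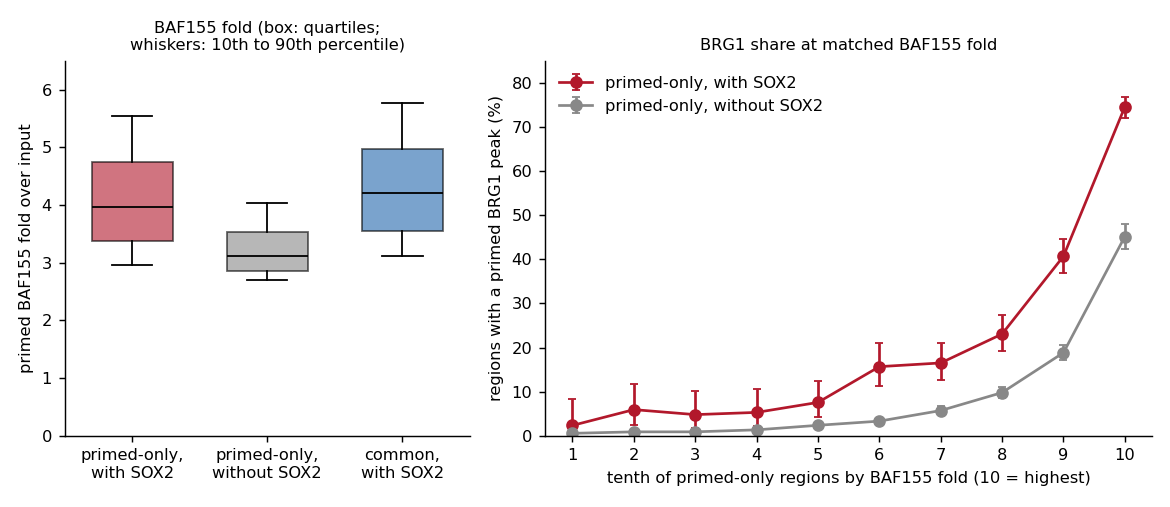
Left, primed BAF155 fold over input (vertical axis, linear) in members, in distal primed-only regions without SOX2 and in distal common regions with SOX2, as medians, quartiles and 10th to 90th percentiles. Right, share of regions with a primed BRG1 peak in each of 10 bins of BAF155 fold with exact 95% intervals, which reached 74.6% for members and 45.2% for regions without SOX2 in the highest bin.

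The share of members with BRG1 also followed SOX2 fold. In 5 bins of equal size by SOX2 fold it was 33.2%, 27.9%, 35.4%, 45.7% and 63.4% from the lowest to the highest, with no steady order over the lowest 3 bins, and the highest bin (interval 59.8 to 66.9%) stood apart. Median BAF155 fold rose over the same bins from 3.67 to 4.70. Members with BRG1 had a median width of 833 bp and members without it 454 bp, and their median SOX2 folds were 7.90 and 6.45. These measures moved together, and their separate parts were not tested.

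Sequence was not used in the selection. In the 200 bp at the region midpoint, the SOX core was present in 49.5% of members (interval 47.8 to 51.1%), in 34.4% of distal primed-only regions without SOX2 and in 38.9% of common regions with SOX2. Windows 2 kb to either side of members held it in 25.7%, and all primed BAF regions in 27.1%. The difference was 15.1 points against regions without SOX2 (interval 13.3 to 16.8) and 10.5 points against common regions (interval 8.12 to 12.9). Within bins of GC content these differences were 13.4 and 9.70 points.

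The OCT4-SOX2 composite element, on which OCT4 and SOX2 bind side by side, gave a different order. It was found in 6.26% of members (interval 5.50 to 7.09%), 2.87% of regions without SOX2, 8.97% of common regions with SOX2, 0.615% of windows 2 kb from members and 2.53% of all primed BAF regions. Members exceeded regions without SOX2 by 3.39 points (interval 2.61 to 4.24) and were 2.71 points lower than common regions (-2.71, interval -4.04 to -1.41). The octamer ATGCAAAT, the OCT part alone, followed the same order, with 5.19%, 3.73% and 7.22%. Because the element is built from a SOX core and an octamer, its matches can overlap those of both motifs. With up to 2 mismatches allowed, a match need not hold a perfect copy of either.

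The ZIC motif was as frequent in members (13.8%, interval 12.7 to 14.9%) as in primed-only regions without SOX2 (13.8%, interval 13.4 to 14.3%), with a difference of -0.07 points (interval -1.24 to 1.17). Both exceeded the 8.20% of common regions with SOX2, the 4.21% of windows 2 kb from members and the 11.6% of all primed BAF regions. The difference between members and common regions was 5.58 points (interval 4.07 to 7.08). Against regions without SOX2 the sign was not stable. Combined over the 10 bins of BAF155 fold the difference was -2.66 points (interval -3.98 to -1.33), and members were lower in 8 bins, with 4.71% against 11.2% in the lowest bin and 16.1% against 18.6% in the highest. They were higher in bin 3 (15.2% against 10.9%) and bin 4 (17.4% against 13.3%), with overlapping exact intervals in both. Under an overlap rule of 50% of each region the difference was 2.94 points (interval 1.43 to 4.57).

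KLF motifs (GGGCGGGGC, GGGCGTGGC, GGGTGGGGC or GGGTGTGGC on either strand) were rare at members. They were found in 0.875% of members, 1.22% of regions without SOX2, 2.94% of common regions with SOX2 and 5.62% of all primed BAF regions. The difference from regions without SOX2 was -0.348 points, with an interval (-0.645 to 0.0342) that included 0, and the difference from common regions was -2.07 points (interval -2.80 to -1.40). The share at members was near that of windows 2 kb away, 0.806%. The TFAP2 motif (GCCNNNGGC) was held by 3.99% of members, 5.62% of regions without SOX2 (-1.63 points, interval -2.29 to -0.885) and 6.34% of common regions (-2.35 points, interval -3.47 to -1.27). The AP-1 motif (TGANTCA) and the TEAD motif (GGAATG) were less frequent in members than in regions without SOX2, with 10.7% against 13.7% and 15.4% against 17.6%. The midpoint motif shares were not matched on region width. Median width was 584 bp in members, 335 bp in regions without SOX2 and 875 bp in common regions. In the 200 bp at the SOX2 summit members held AP-1 in 12.2% and TEAD in 18.2%. Regions without SOX2 have no summit for that comparison. Against common regions AP-1 was more frequent in members, by 2.73 points (interval 1.31 to 4.13), and the TEAD difference of -0.406 points had an interval (-2.19 to 1.36) that included 0. The TCF/LEF motif (ATCAAAG), bound by effectors of WNT signalling, was more frequent in members (6.04%) than in regions without SOX2 (4.22%) or common regions (4.10%). The differences were 1.82 points (interval 1.04 to 2.68) and 1.94 points (interval 0.869 to 3.00). On the other strand this motif reads CTTTGAT, which shares the letters CTTTG with the SOX core CTTTGT. The part of that likeness was not tested. The OTX motif (TAATCC) was found in 11.8% of members, 10.2% of regions without SOX2 (1.64 points, interval 0.553 to 2.79), 10.6% of common regions (1.19 points, interval -0.366 to 2.72) and 13.5% of windows 2 kb from members. Median GC content was 44% in members, 44.5% in regions without SOX2 and 45% in common regions, against 50.5% over all primed BAF regions.

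**Figure D2:**
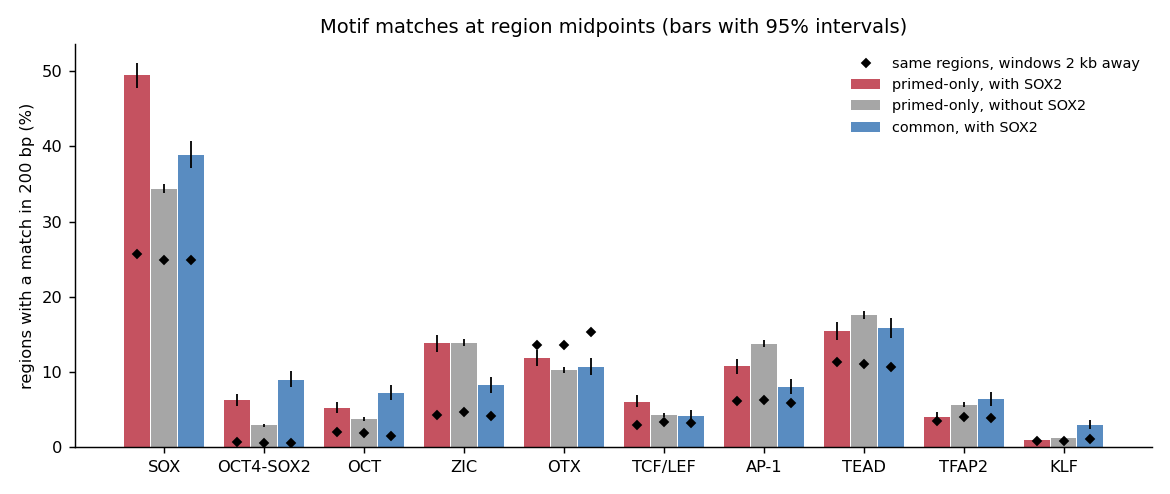
Share of regions with at least 1 match to each motif in the 200 bp at the midpoint (vertical axis, percent), as bars with exact 95% intervals for members, primed-only regions without SOX2 and common regions with SOX2, and as diamonds for windows 2 kb to either side of the same regions. The SOX core reached 49.5% in members, and ZIC was at 13.8% in both primed-only classes and 8.20% in common regions.

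Motif matches concentrated at the SOX2 summit of members. Within 25 bp of the summit there were 6.85 SOX cores per kb per member, 4.50 times the 1.52 per kb found between 500 and 1000 bp away. OCT4-SOX2 elements were 27.2 times and ZIC motifs 5.46 times as dense at the summit as at that distance, while KLF matches (1.09 times) and OTX matches (0.910 times) were close to the density at that distance. TFAP2 matches were 1.54 times as dense. Within 25 bp of the summit there were only 7 KLF and 48 TFAP2 matches. In common regions with SOX2 the corresponding ratios were 3.91 for the SOX core, 53.3 for the OCT4-SOX2 element and 2.72 for ZIC. For KLF, TFAP2 and OTX they were 1.67, 0.917 and 0.695.

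In the 200 bp centred on the summit, 64.4% of members held a SOX core (interval 62.9 to 66.0%), 23.9% held at least 2 and 5.69% at least 3. An OCT4-SOX2 element was present in 361 members (9.87%), of which 5 had no mismatch, 52 had 1 and 304 had 2 at best. Neither motif was present in 1195 members (32.7%). ZIC was present in 18.5%, and 420 members held both a SOX core and ZIC. Compared with common regions at their own summits, members held the SOX core more often by 7.38 points (interval 4.99 to 9.76) and ZIC more often by 7.62 points (interval 5.91 to 9.31). They held the OCT4-SOX2 element less often, in 9.87% against 19.6% (-9.71 points, interval -11.5 to -7.97).

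**Figure D3:**
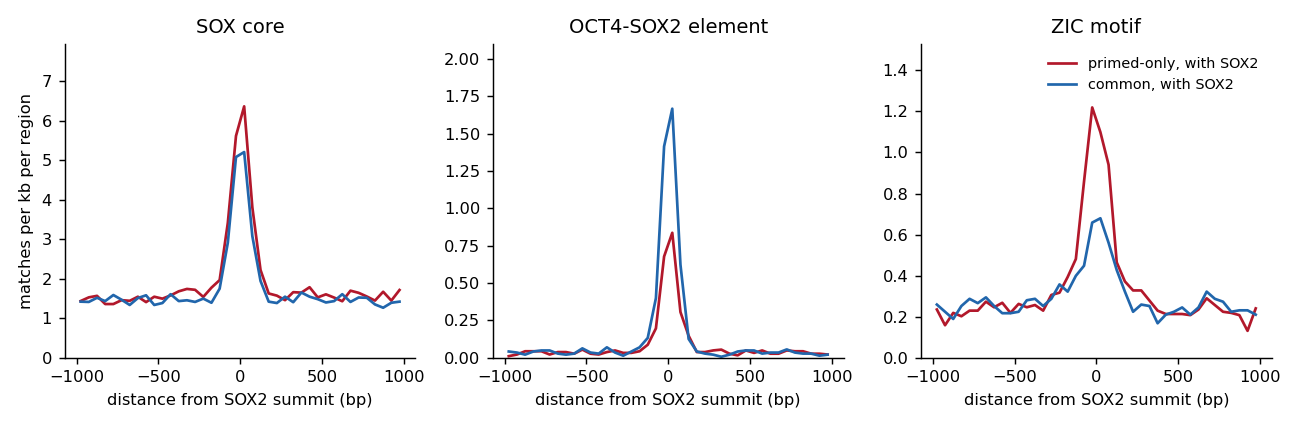
Density of matches (matches per kb per region, in bins of 50 bp) against distance from the SOX2 summit in bp, for the SOX core, the OCT4-SOX2 element and the ZIC motif, in members and in common distal regions with SOX2. All 3 motifs peak at the summit, with the element higher in common regions and the SOX core and ZIC higher in members.

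Of the 10 motifs, ZIC differed most between members with and without BRG1. At the summit it was held by 22.3% of members with BRG1 and 15.8% of members without it, a difference of 6.44 points (interval 3.86 to 9.07). AP-1 differed by 5.11 points (interval 2.92 to 7.36) and TEAD by 3.25 points (interval 0.699 to 5.84) in the same direction. The SOX core was held by 62.6% and 65.7% (interval of the difference -6.22 to 0.0929), and the OCT4-SOX2 element by 9.77% and 9.94% (interval -2.10 to 1.84). Median BAF155 fold was 4.74 in members with BRG1 and 3.55 in members without it. At midpoints, ZIC was held by 4.71% of members in the lowest of 10 bins of BAF155 fold and 16.1% in the highest. The differences by BRG1 were not matched on BAF155 fold, and its part was not tested. Along SOX2 fold, the SOX core rose from 57.2% of the lowest bin (interval 53.6 to 60.9%) to 69.0% of the highest (interval 65.5 to 72.3%), and ZIC went from 16.3% to 21.6%, with intervals that just overlapped.

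Naïve peaks at members were few. A naïve SOX2 peak overlapped 28 members (0.765%, interval 0.509 to 1.10%) and 14 of 22237 regions without primed SOX2 (0.0630%), a difference of 0.702 points (interval 0.463 to 1.04). The size of this difference varied with the settings, up to 4.02 points (interval 3.25 to 4.96) under an overlap rule of 50% of each region. The share was 25.8% in common regions and 2.00% over all primed BAF regions. Members had no naïve BAF region by the selection, whereas common regions all had one. The selection therefore bears on the contrast with these 2 shares, and its part was not tested. At these 28 members the primed SOX2 fold had a median of 9.48, against 6.92 at the other members, and the naïve SOX2 fold ran from 4.52 to 11.6. The members with the highest naïve fold, chosen after their values were seen, lay in an intron 19.2 kb from FLI1 (naïve fold 11.6, primed fold 9.70) and 161 kb from GC (naïve fold 11.4, primed fold 5.61). Folds of different libraries are not on a common scale.

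A naïve BRM peak overlapped 7 members (0.191%) and 87 regions without SOX2 (0.391%), a difference of -0.200 points whose interval (-0.334 to 0.0163) included 0. The share was 31.9% in common regions and 14.6% over all primed BAF regions. The 7 members included an intronic site 18.5 kb from PAX7, a neural crest and muscle regulator, and one 18.2 kb from TCF7L1, a repressor of WNT targets, both named after their values were seen. No member overlapped a primed BRM region (0 of 3658), in a list of 167 regions. A limit of 3 counts allows a share of up to 0.0820%, and the exact 95% interval reaches 0.101%. Because the selection removed naïve BAF regions, naïve BRM was held low in both primed-only classes. A naïve BAF region lay within 10 kb of 33.6% of members and of 41.7% of regions without SOX2, a difference of -8.15 points (interval -9.79 to -6.47).

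Members lay mainly in introns and between genes. Of 3658 midpoints 2161 were in introns (59.1%), 1375 were intergenic (37.6%) and 122 were in exons (3.34%). The share in introns was 3.46 points lower than in regions without SOX2 (-3.46, interval -5.18 to -1.75) and 4.96 points higher than in common regions (interval 2.53 to 7.38). The interval of the first of these differences included 0 with a −log10 q of at least 3 (-1.44, interval -3.31 to 0.41). With regions built from BRG1 peaks alone the difference was 0.47 points (interval -2.58 to 3.52). The nearest transcript start was 16.3 kb away at the median, against 12.9 kb for regions without SOX2 and 11.4 kb for common regions, and the nearest protein-coding start was 45.4 kb away, against 29.4 and 28.8 kb. A start lay within 10 kb of 35.7% of members and of 42.4% of regions without SOX2, a difference of -6.69 points (interval -8.36 to -4.99).

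Genes were assigned by a transcript start within 20 kb of a midpoint. Of 19970 protein-coding genes, 1265 had a member within that distance (6.33%), and 6890 had a distal primed-only region without SOX2 (34.5%). Of the members 1197 (32.7%) had a protein-coding start within 20 kb and 67.1% within 100 kb. Most such genes had a single member (1146 of 1265), and 19 had at least 3. The highest number, 5 within 20 kb, was found at NTRK2, a neurotrophin receptor gene noted after its value was seen.

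Among gene lists, the highest shares were found for regulators of the neuroectoderm, with 9 of 28 genes (32.1%, exact interval 15.9 to 52.4%), and for genes of the primed state, with 7 of 22 (31.8%, interval 13.9 to 54.9%). Both intervals lay above the 6.33% of all protein-coding genes. The corresponding shares for regions without SOX2 were also high, at 75% and 72.7% against 34.5%. In the neuroectoderm list the strongest members lay 7.38 kb from a start of ZEB2 (SOX2 fold 15.4), a zinc-finger repressor gene, 2.13 kb from RAX (fold 12.1), the eye-field homeobox gene, 2.84 kb from MEIS2 (fold 6.68) and 11.8 kb from SOX1 (fold 6.39), a SOX2 relative of the neural plate. In the primed list they lay in TCF4 (fold 7.90), at the divergent pair ZIC2 and ZIC5, which shared 1 member (chr13:99974375-99976452, fold 6.94), and near CD24 (fold 5.92).

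Axon guidance genes, which encode receptors and ligands that steer growing neurites, had a member at 10 of 34 (29.4%, interval 15.1 to 47.5%). These included EPHA2 (SOX2 fold 36.8), EPHB3 (13.4), EPHA4 (10.3) and EFNA5 (6.70), all of the ephrin system. A region without SOX2 lay near 91.2% of the same genes. The sequence within 20 kb of a start was larger for axon guidance genes, with a median of 120 kb against 49.5 kb for all protein-coding genes, and its part in the count was not tested. WNT signalling genes were at 8 of 28 (28.6%, interval 13.2 to 48.7%), led by the receptor gene FZD3 (14.0), by TCF7L2 (11.2), which encodes a nuclear effector, by ROR2 (7.67) and by WNT5B (7.06). FGF and ERK feedback genes were at 6 of 21 (28.6%, interval 11.3 to 52.2%), led by IL17RD (fold 17.5), an inhibitor of FGF signalling, FGF1 (14.5), FGF13 (9.82) and SPRY1 (8.39), a feedback inhibitor. The intervals of these 3 lists lay above the 6.33% of all genes. The shares for regions without SOX2 were again high, at 75% of WNT and 57.1% of FGF and ERK genes against 34.5% of all genes, so high shares were not particular to members.

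Core pluripotency genes were at 4 of 18 (22.2%, interval 6.41 to 47.6%). Their members lay near DNMT3B (chr20:32751570-32752958, SOX2 fold 15.0), the de novo DNA methyltransferase gene, JARID2 (9.19), LIN28A (7.51) and FOXD3 (6.01). Endoderm and mesoderm regulators were at 4 of 19 (21.1%, interval 6.05 to 45.6%), namely MSGN1 (16.5), PDGFRA (7.64), LHX1 (5.99) and FOXA2 (4.75). In the SOX family without SOX2, SOX5 (9.41), SOX1 and SOX10 (5.79) had a member among 18 genes (16.7%, interval 3.58 to 41.4%). The intervals of this list and of the endoderm and mesoderm list included the 6.33% of all genes, and that of core pluripotency only just lay above it. When each member was assigned to its nearest start alone, 5.33% of all genes had a member, core pluripotency fell to 2 of 18 (11.1%, with an interval of 1.38 to 34.7% that included the share of all genes), and the endoderm and mesoderm list stayed at 4 of 19, with an interval just above it. Regions without SOX2 lay near 50%, 63.2% and 50% of the genes of these 3 lists.

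The remaining lists had shares of at most 10%. NODAL and TGF-beta signalling had members at 2 of 20 genes (10%), FOXH1 (fold 11.8) and SMAD4 (7.35), and BAF subunits at 2 of 28 (7.14%), ARID1B (7.67) and ARID1A (7.30). The FOXH1 site lay in an intron of PPP1R16A, 5.64 kb from a start of that gene and 8.54 kb from one of FOXH1. Of naïve and preimplantation genes only KLF4 had one (1 of 20, 5%, fold 8.47, 15.1 kb away), and trophoblast regulators had none (0 of 13, interval 0 to 24.7%). The intervals of all these lists included the 6.33% of all protein-coding genes, so none of them stood apart from that share. Regions without SOX2 lay near 50%, 35.7%, 40% and 46.2% of their genes in this order, against 34.5% of all genes. With 13 to 34 genes a list, the intervals of all lists overlapped each other, and differences between lists were not tested.

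**Figure D4:**
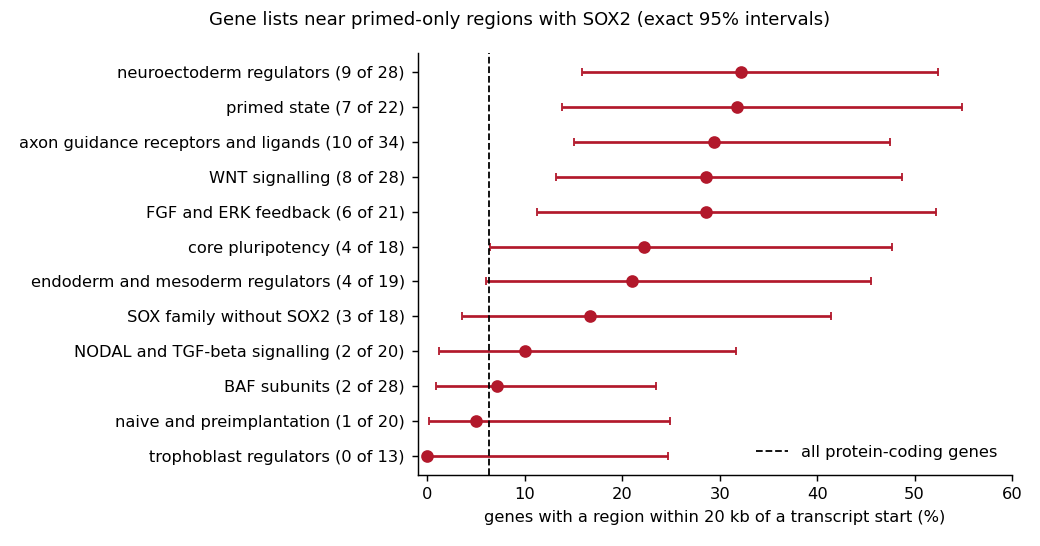
Share of the genes in each list with a member within 20 kb of a transcript start (horizontal axis, percent), with exact 95% intervals and the number of genes. The dashed line marks the 6.33% of all protein-coding genes, which lay under the intervals of 6 lists, from neuroectoderm regulators to core pluripotency, the last with a lower bound of 6.41%.

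Members were mostly isolated. When members within 50 kb of each other were joined, 2913 stood alone, 745 (20.4%) fell into 345 groups and the largest groups held 4. The genes with most members within 100 kb of a start were AUTS2 with 8, CNTNAP2 with 7 and ANKS1B, CCDC85C, DENND1A and MSI2 with 6 each, followed by BMP7, EFNA5, FOXA2 and GLI3 with 5 each. Such counts reach 19.7% of protein-coding genes for at least 1 member. AUTS2 and CNTNAP2, which are associated with neurodevelopment, are 1195 kb and 2305 kb long, whereas FOXA2, which encodes a pioneer factor of endoderm and floor plate, is 4.46 kb long and BMP7, a BMP ligand gene, 97.9 kb. All 5 members at GLI3, an effector of hedgehog signalling, lay inside the gene, with SOX2 folds from 5.30 to 19.0, and all held a SOX core or an OCT4-SOX2 element at the summit. Over all members 32.7% held neither. Among the 10 listed genes the members with either motif ran from 2 of 6 at ANKS1B to 6 of 6 at CCDC85C, with 3 of 8 at AUTS2.

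At FOXA2 the members lay -78.3, -34.5, 9.59, 16.9 and 94.8 kb from the start in the direction of the gene, with SOX2 folds of 5.79, 6.05, 4.75, 3.43 and 5.12. In the 200 kb around the start there were 15 primed and 4 naïve BAF155 peaks, 4 primed and 4 naïve BRG1 peaks, 7 primed SOX2 peaks and 0 naïve SOX2 peaks. Only 1 of the 5 members had a BRG1 peak. At AUTS2, 9 members lay between -100 and 1300 kb from the first start. The strongest, with a SOX2 fold of 24.99, lay at -79.7 kb, and the remainder fell at the start of the gene, in its first part and near and beyond its end. The same interval held 12 primed and 4 naïve SOX2 peaks, 49 primed and 25 naïve BAF155 peaks, and 13 primed and 22 naïve BRG1 peaks. The member 1296 kb from the start was among the 28 with a naïve SOX2 peak (naïve fold 8.92, primed fold 14.2). The whole lists held 9290 primed and 1940 naïve SOX2 peaks and 58352 primed and 62338 naïve BAF155 peaks. For BRG1 they held 15611 primed and 57853 naïve peaks. Both genes were named for their number of members, so primed SOX2 and BAF155 peaks at them are in part given by that choice.

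**Figure D5:**
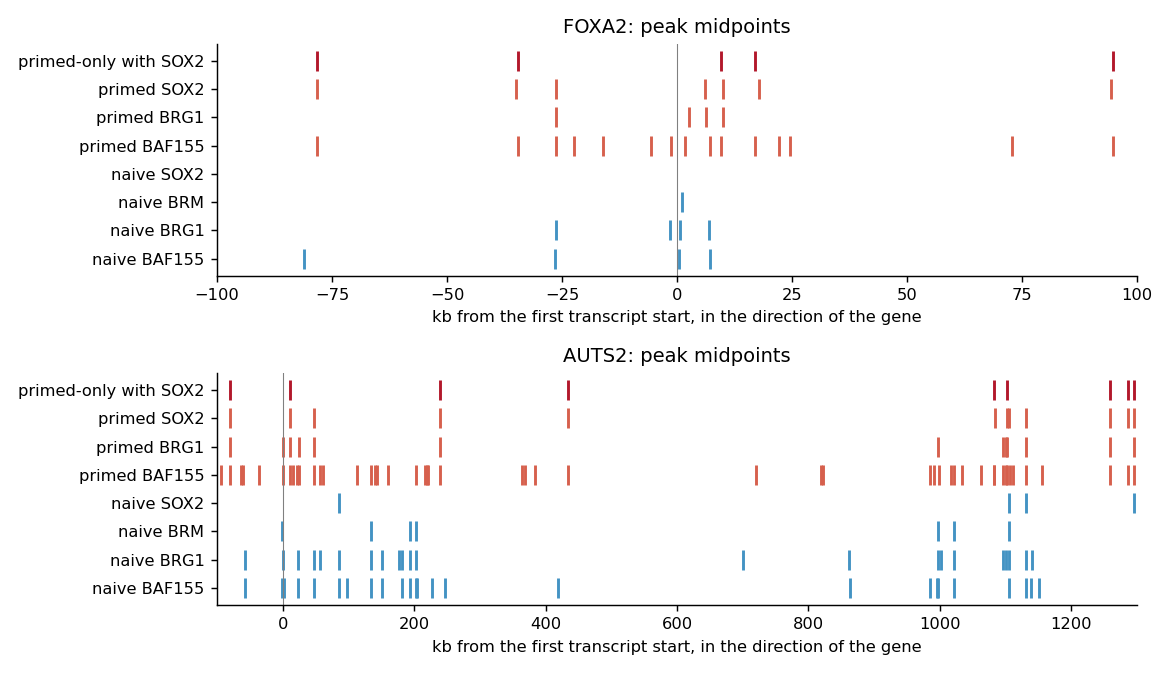
Midpoints of members and of the peaks of each list (rows) at FOXA2 and AUTS2, against the distance in kb from the first transcript start in the direction of the gene, with the start at 0. FOXA2 has 5 members and no naïve SOX2 peak in the window, and AUTS2 has 9 members on both sides of and within the gene.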

How the data were processed

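ChIP-seq peak lists of WIBR3 cells were used as deposited. The authors trimmed reads, mapped them to hg38 with Bowtie2 (2.3.4 in the submitters' processing notes), removed duplicates and called peaks with MACS2 against input, narrow for SOX2 and broad for BAF subunits. The deposited lists give positions and, except for primed BRM and the second SOX2 lists, a score, the linear fold over input, and both p-value and q-value as −log10. The score was not used. Whether SOX2 libraries were pooled before peak calling is not given in the sources used here.

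Peaks on chromosomes 1 to 22 and X were merged and overlapped in Python 3.11.15 (numpy 2.4.6, pandas 2.3.3, scipy 1.17.1, pysam 0.24.0) with GENCODE release 44 and the hg38 sequence. All 10 lists stayed within hg38 chromosome lengths. Motifs were searched on both strands of 200 bp windows. Shares carry exact Clopper-Pearson intervals, differences Newcombe intervals and stratified differences Mantel-Haenszel intervals, all at 95%, and code was tested on simulated data. Regions are not replicates, so no p-values are given. The members, gene lists and comparisons were chosen with earlier results of these data known. Named sites were the 10 members of highest SOX2 fold, the 5 of highest BAF155 fold and the strongest per gene list, named genes at most 4 per list by SOX2 fold and the 10 genes with most members within 100 kb. The last list was cut within a tie of genes with 5 members. The 10 bins of BAF155 fold were added after the data were seen. The alternatives were other overlap rules, q thresholds, BAF peaks, the second SOX2 list, list lengths, distal limits, windows, strata and gene distances.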

Additional observations from a re-analysis of the deposited data

How the results depend on the processing

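Of 155 recomputed values 16 were fixed by construction. These were the 12 with the second primed SOX2 list, which has the coordinates of the first, the 3 comparisons with regions without SOX2 in windows at the SOX2 peak, which could be recentred in members alone, and the BRG1 difference with BRG1 peaks alone. Of the other 139, 114 kept their direction and side of the threshold (an interval without 0, or a count within 1.5 times). The differences that did so under every such alternative still varied in size. The SOX core difference ran from 10.3 to 26.5 points, the OCT4-SOX2 difference from 1.85 to 7.65, the naïve SOX2 difference from 0.682 to 4.02, the BRG1 difference from 10.4 to 53.5, and the differences from common regions from 6.27 to 11.02 for the SOX core and from 3.58 to 10.9 for ZIC. The number of members fell to 2232 with 50% of both regions covered, 1786 with BRG1 peaks alone and 867 with lists of equal length, and the genes within reach were 678 with BRG1 alone, 328 with equal lists, 752 with a distal limit of 5 kb and 3933 within 100 kb. With BRG1 peaks alone the BRG1 difference is 0 by construction. The intron difference was -1.44 points with a −log10 q of at least 3, -3.10 with equal lists and 0.473 with BRG1 alone (interval -2.58 to 3.52). Each of these intervals included 0. The KLF difference from common regions was -0.941 with 50% of both covered, its interval including 0. The naïve BRM difference was 0.377 with 50% of both covered, with an interval (-0.281 to 1.19) that included 0. The interval of this difference excluded 0 with BAF155 alone (-0.364), BRG1 alone (-0.935), width strata (-0.254) and BAF155 fold strata (-0.284). The ZIC difference from regions without SOX2 turned positive with 25% of both covered (0.868), 50% of both (2.94), 1 bp shared (0.000365), BRG1 alone (2.60), the 5 kb limit (0.288), 400 bp windows (0.791) and GC strata (0.544), and in windows recentred in members alone (4.11). Of these positive values, the interval lay above 0 with 50% of both, BRG1 alone and the recentred windows, and included 0 with the others. The interval of the ZIC difference lay under 0 with BAF155 fold strata (-2.66) and under the stricter q limit (-2.88). The BAF155 fold strata were added after the data were seen. Where no value bears on it, the cause was not tested. No paired analysis was possible because both SOX2 lists of a state hold identical coordinates and the other groups have 1 list each. Read depth was not taken into account, which limits every statement on a missing peak.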

Other observations

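The share of distal primed-only BAF regions that had SOX2 differed among chromosomes. On the X chromosome 240 of the regions were members against 996 without SOX2 (19.4%, exact 95% interval 17.2 to 21.7%), which was the highest share, ahead of chromosome 21 (16.9%, interval 12.3 to 22.3%). The lowest shares were on chromosome 19 (9.16%, interval 5.96 to 13.3%), chromosome 22 (10.2%) and chromosome 17 (10.8%). The X chromosome also had the most members per Mb (1.54), and chromosome 19 the fewest (0.409). These values were noted after they were seen and carry no test.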
